A study of Drosophila melanogaster with 4 samples.

Results

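The 9 genes described here form the switch by which a female germline stem cell daughter of *Drosophila melanogaster* leaves the stem cell state: *bam*, *bgcn*, *tut*, *mei-P26*, *Rbfox1*, *Sxl*, *ovo*, *otu* and *stil*. They were chosen by FlyBase symbol, and all 9 were found among the 17023 genes of each count table and passed the minimum of 10 counts summed over the libraries, as did 11128 genes in all. Poly(A)-selected RNA of whole ovaries was sequenced in 2 libraries of germline *aramis* RNAi and 2 libraries of germline *bam* RNAi, which serves as the developmental control of the series. Both groups carried *UAS-Dicer2* and *NosGAL4*, which drives expression in germ cells, so that the RNAi against *aramis* or *bam* was directed at germ cells and not at the somatic cells of the ovary. Ovaries came from yeast-fed flies dissected 1 to 3 days after eclosion. The control is itself a knockdown of 1 of the 9 genes, and ovaries with the driver alone were not analysed here, so the extent of the *bam* knockdown was not measured.

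As background, Bam is expressed in the cystoblast, the daughter of the stem cell, and is both required and sufficient for its differentiation. It acts with Bgcn, an RNA-binding partner related to helicases, and these proteins, together with Mei-P26 and Sxl, lower the translation of mRNAs that maintain stem cells, among them *nanos*. The switch also needs the female identity of the germ cell, which rests on the transcription factor Ovo, the ovarian tumor protein Otu, Stil and the RNA-binding protein Sxl, and loss of these genes gives germ cell tumours or loss of germ cells. Germ cells depleted of Bam stay undifferentiated and fill the ovary.

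All 9 genes had a lower mean in *aramis* RNAi than in *bam* RNAi, but the size of the difference varied. Differences between members were not tested. On the log2 scale the 95% interval of *stil*, -2.49 to -0.55, overlapped those of *bgcn* (-3.31 to -1.59) and *mei-P26* (-1.45 to 0.17). *ovo*, *otu* and *bgcn* fell to between 16.6% and 18.3% of the *bam* RNAi level and *stil* fell to 34.9%, while *bam*, *tut*, *mei-P26*, *Rbfox1* and *Sxl*, at between 64.1% and 96.6%, did not pass the test. Thus 4 of 9 genes fell and none rose (DESeq2 Wald test, adjusted p under 0.05), where 7.04% of the 11128 tested genes fell, 8.9% rose and 15.9% changed in either direction. With a further limit of a 4-fold change, 3 of 9 fell, where 3.25% of tested genes fell. In edgeR 4 of 9 also fell, where 4.74% of tested genes fell. On the log2 scale the median change of the 9 genes, *aramis* RNAi over *bam* RNAi, was -0.64, beside -0.09 over every gene tested. The higher *aramis* RNAi value was below the lower control value in 7 of the 9 genes, as it was in 30.3% of the genes tested. Only *bam* and *Rbfox1* overlapped between the groups.

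**Figure D1:**
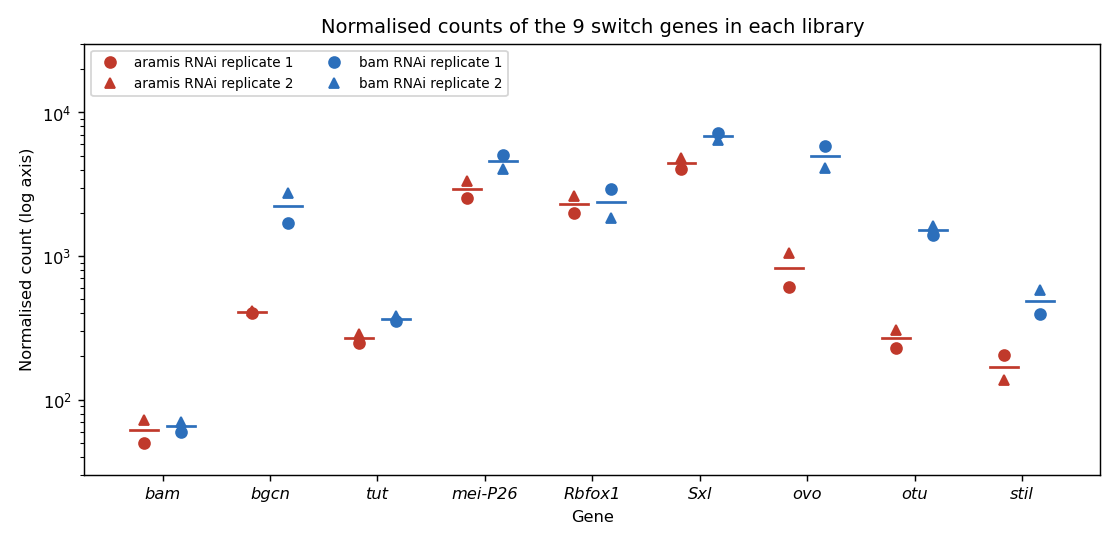
Normalised counts (log axis) of the 9 genes in each library, with *aramis* RNAi in red left of *bam* RNAi in blue; circles are replicate 1, triangles replicate 2, and bars the group means (n = 2). The groups lie far apart for *bgcn*, *ovo* and *otu*, less far apart for *stil*, and overlap for *bam* and *Rbfox1*.

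Total counts per library ran from 12977013 to 16754980, so that 3 counts, the limit that a count of 0 allows, were worth 0.179 to 0.231 CPM (counts scaled to a common library total), for counting error only. *ais*, the annotation's name for the targeted gene *aramis*, had 117 and 153 normalised counts in *aramis* RNAi against 910 and 323 in *bam* RNAi (-2.19 log2 units, SE 0.56, adjusted p = 0.00186 in DESeq2), but this call was lost without *aramis* RNAi replicate 1 (-1.99, adjusted p = 0.223 in DESeq2), *aramis* RNAi replicate 2 (-2.38, 0.0636) or *bam* RNAi replicate 1 (-1.26, 0.150), and with size factors from germline markers (-0.92, 0.204). Of the 25 germline markers found in the tables, 12 fell and 1, *grk*, rose, where 7.04% of all tested genes fell and 8.9% rose. The summed level of the 25 markers was 1762 and 2044 CPM in *aramis* RNAi against 4376 and 5871 CPM in *bam* RNAi. The 6 hemocyte markers summed to 2408 and 2675 CPM against 309 and 502 CPM, and 5 of them rose. The 9 muscle markers summed to 43288 and 43983 CPM against 19767 and 17557 CPM, and 6 of them rose. The 12 ovarian somatic markers summed to 1934 and 2509 CPM against 2291 and 1788 CPM, so the groups overlapped, and only *tj* among them changed, with a fall (-1.78 log2 units, adjusted p = 0.00139 in DESeq2). The ovaries of the groups therefore differed in the RNA of several cell types, and whether there were fewer germ cells or less RNA per germ cell cannot be told apart in bulk samples. The part of these cell types in the results below was not tested, except where a value scaled to the germline markers is given. With 2 libraries against 2, an exact two-sided permutation test cannot give a p below 0.333, so p-values come from fits across all genes. No source says that replicates came from separate cohorts of flies, so these p-values measure only the spread between the libraries, which may be technical.

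By function, the genes described first are *bam*, the genes *bgcn*, *tut* and *mei-P26* whose proteins act with Bam, and *Rbfox1*, which acts later. *bam* (FBgn0000158; chromosome 3R, 25243039 to 25245109, minus strand, dm6; 3 exons in a transcript of 1946 nt) was covered by only 49 and 68 reads in *aramis* RNAi against 57 and 82 in the control. The exact 95% Poisson intervals of these counts were 36.3 to 64.8 and 52.8 to 86.2 for the *aramis* RNAi libraries, against 43.2 to 73.9 and 65.2 to 101.8 for the controls, so that, before scaling for depth, only the lowest and the highest did not overlap. As normalised counts the values were 50.3 and 72.7 in *aramis* RNAi against 60.0 and 70.4 in *bam* RNAi. The change was -0.09 log2 units (SE 0.69, adjusted p = 0.948 in DESeq2), and its 95% interval reached from -1.43 to 1.26, that is, from 0.371-fold to 2.39-fold. With 2 libraries per group, changes within these bounds cannot be told apart, and the smallest detectable change was not measured. The interval includes the fitted spread between libraries and not only counting error. The direction changed without *aramis* RNAi replicate 1 (0.18) or *bam* RNAi replicate 2 (0.03). *bam* was the gene with the fewest reads of the 9 in every library, and the libraries labelled *bam* RNAi did not have less of it than the libraries labelled *aramis* RNAi. *CG11854*, whose annotated span overlaps that of *bam* by 224 nt on the other strand, had at most 3 reads in any library.

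*bgcn* (FBgn0004581; chromosome 2R, 23853270 to 23858921, minus strand; 5 exons), whose protein binds Bam and is needed for its function, differed more between the groups. Its values were 401 and 412 in *aramis* RNAi against 1694 and 2755 in *bam* RNAi. The *aramis* RNAi libraries lay close together and well below both controls. The change was -2.45 log2 units (SE 0.44, adjusted p = 2.85e-06 in DESeq2), a level 18.3% of that in *bam* RNAi. The fall passed the test without any single library, with adjusted p of at most 0.0341, and in edgeR (adjusted p = 0.00671). The annotated span of *bgcn*, introns included, overlaps that of *Pym* by 983 nt on the same strand. Whether their exons overlap was not examined, so it is not known whether reads there were hard to assign. *Pym* itself had 101 and 147 normalised counts in *aramis* RNAi against 234 and 117 in *bam* RNAi, far fewer than *bgcn* in the controls.

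*tut* (FBgn0052364; chromosome 3L, 8209577 to 8210743, minus strand; 3 exons) encodes an RNA-binding protein that joins Bam and Bgcn in one complex, a role known from the male germline. It had 247 and 288 normalised counts in *aramis* RNAi against 353 and 382 in *bam* RNAi. The groups did not overlap, but the change of -0.46 log2 units (SE 0.46) did not pass the test (adjusted p = 0.541 in DESeq2), with a 95% interval from -1.36 to 0.45.

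*mei-P26* (FBgn0026206; chromosome X, 9163255 to 9189309, plus strand) encodes a TRIM-NHL protein that acts with Bam, Bgcn and Sxl in the cystoblast and restrains growth and proliferation of the cysts. Its values were 2535 and 3315 in *aramis* RNAi against 5089 and 4038 in *bam* RNAi. The groups did not overlap, yet the change of -0.64 log2 units (SE 0.41, adjusted p = 0.292 in DESeq2) did not pass the test, and its 95% interval ran from -1.45 to 0.17. *mei-P26* has the longest annotated transcript of the 9, at 23041 nt.

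*Rbfox1* (FBgn0052062; chromosome 3L, 10481412 to 10594012, plus strand) acts after *bam*, in the cyst, where its cytoplasmic protein lowers the translation of *pum* mRNA; it is also active in somatic cells, muscle among them. It had 1981 and 2620 normalised counts in *aramis* RNAi against 2925 and 1837 in *bam* RNAi. Both *aramis* RNAi values lay between the 2 control values. The change was -0.05 log2 units (SE 0.44, adjusted p = 0.954 in DESeq2), with a 95% interval from -0.91 to 0.81, and its direction changed without *aramis* RNAi replicate 1 (0.16) or *bam* RNAi replicate 1 (0.33).

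The remaining genes carry the female identity of the germ cell. *Sxl* (FBgn0264270; chromosome X, 7074550 to 7098053, minus strand), the switch gene of sex determination, is active in female somatic cells as well as in germ cells. It had the highest normalised counts of the 9 genes in every library, at 4015 and 4831 in *aramis* RNAi against 7251 and 6431 in *bam* RNAi. The groups did not overlap, but the change of -0.63 log2 units (SE 0.40, adjusted p = 0.284 in DESeq2) did not pass the test, with a 95% interval from -1.41 to 0.15. The annotation lists 25 transcripts of *Sxl*, of which the female and male forms differ by splicing, and counts per gene do not separate them.

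*ovo* (FBgn0003028; chromosome X, 5048273 to 5070929, plus strand) encodes a zinc finger transcription factor needed for female germ cells, and its somatic form, *shavenbaby*, shapes the larval epidermis. Its values were 609 and 1046 in *aramis* RNAi against 5831 and 4138 in *bam* RNAi. The lower control was still well above the higher *aramis* RNAi value. This was the largest change of the 9, at -2.59 log2 units (SE 0.45, adjusted p = 1.16e-06 in DESeq2) and 16.6% of the control level. It passed the test without any single library (DESeq2 adjusted p at most 0.0479) and in edgeR (adjusted p = 0.00505). The annotated span of *ovo*, introns included, overlaps that of *lncRNA:CR44833* by 15596 nt on the other strand. *lncRNA:CR44833* had 11.3 and 9.62 normalised counts in *aramis* RNAi against 49.5 and 87.6 in *bam* RNAi, a small fraction of those of *ovo*.

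*otu* (FBgn0003023; chromosome X, 8485008 to 8489535, minus strand; 9 exons) encodes a deubiquitinase that, together with Bam, stabilises cyclin A. It had 230.0 and 305 normalised counts in *aramis* RNAi against 1409 and 1617 in *bam* RNAi. Replicates lay close together in both groups, and the change was -2.50 log2 units (SE 0.43, adjusted p = 9.41e-07 in DESeq2), or 17.7% of the control level. The call held without any single library (DESeq2 adjusted p at most 0.0404) and in edgeR (adjusted p = 0.00604). *CG33181*, whose annotated span overlaps that of *otu* by 188 nt on the other strand, had 400.5 and 444.5 normalised counts in *aramis* RNAi against 935 and 710 in *bam* RNAi (-0.96 log2 units, adjusted p = 0.111 in DESeq2). Whether counting used strand was not given in the sources used here, so a part of the counts could have been assigned to the wrong partner.

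*stil* (FBgn0003527; chromosome 2R, 12570367 to 12571883, plus strand; 4 exons) encodes a nuclear protein that activates *otu* in the female germline. Its values were 203 and 137 in *aramis* RNAi against 393 and 582 in *bam* RNAi. The groups did not overlap, and the change was -1.52 log2 units (SE 0.50, adjusted p = 0.0184 in DESeq2). The call was near the threshold in edgeR (adjusted p = 0.0486) and was lost without *aramis* RNAi replicate 1 (adjusted p = 0.219 in DESeq2), *aramis* RNAi replicate 2 (0.341) or *bam* RNAi replicate 2 (0.113).

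Levels of different genes can be compared only per length, for which counts were converted to TPM (counts divided by transcript length and scaled to a common total) with the longest annotated transcript. *Sxl* stood highest, at 69.9 and 100.7 TPM in *aramis* RNAi against 201 and 169.6 TPM in *bam* RNAi, and *bam* stood lowest, at 2.68 and 4.64 TPM against 5.11 and 5.69 TPM. These were the first and the last of the 9 in every library, also with the mean length of a gene's transcripts in place of the longest. The genes between them changed places. In *aramis* RNAi *ovo* had 9.35 and 19.2 TPM and *bgcn* 10.02 and 12.3 TPM, below *Rbfox1* with 30.7 and 48.7 TPM and *tut* with 24.6 and 34.3 TPM. In *bam* RNAi, with 143 and 96.3 TPM and with 67.5 and 104 TPM, *ovo* and *bgcn* came next after *Sxl* by mean level. In the order of mean levels in *aramis* RNAi (*Sxl*, *Rbfox1*, *tut*, *stil*, *mei-P26*, *ovo*, *bgcn*, *otu*, *bam*), neighbours did not overlap only between *Sxl* and *Rbfox1*, *tut* and *stil*, and *otu* and *bam*. In the order in *bam* RNAi (*Sxl*, *ovo*, *bgcn*, *otu*, *stil*, *Rbfox1*, *tut*, *mei-P26*, *bam*), they did not overlap only between *Sxl* and *ovo*, *tut* and *mei-P26*, and *mei-P26* and *bam*. The place of *mei-P26* depended on the length used, since its mean over the 4 libraries was 23.4 TPM with the longest transcript and 41.9 TPM with the mean length.

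**Figure D2:**
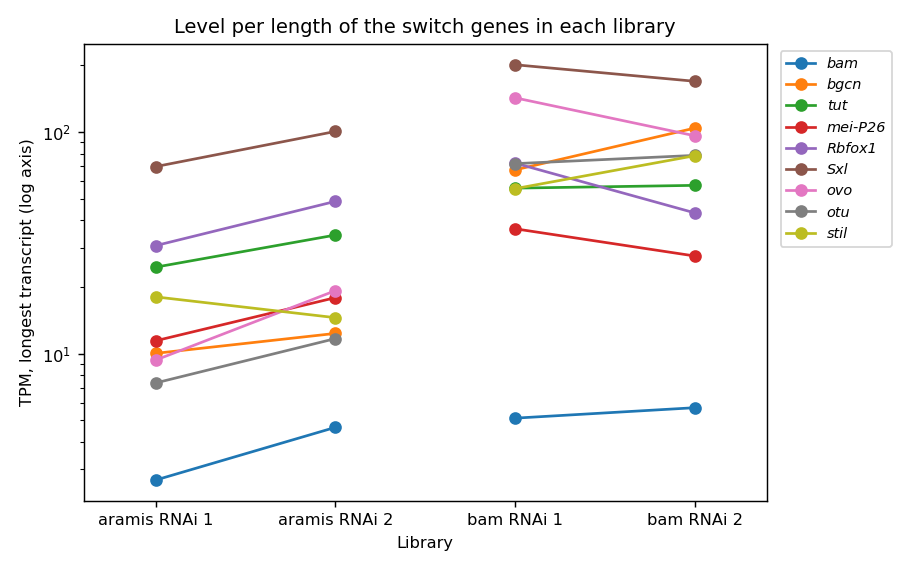
TPM (log axis, longest annotated transcript) of the 9 genes in each of the 4 libraries, with lines joining the replicates of a group. *Sxl* is highest and *bam* lowest in every library, and *ovo*, *otu* and *bgcn* lie below *Rbfox1* and *tut* in both *aramis* RNAi libraries.

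Ratios between members within 1 library do not depend on the scaling of that library. Of 9 pairs chosen after the values were seen, *bgcn* over *bam* differed most, with TPM ratios of 3.73 and 2.66 in *aramis* RNAi against 13.2 and 18.3 in *bam* RNAi. The ratio of *bgcn* to its other partner *tut* was 0.408 and 0.360 in *aramis* RNAi against 1.21 and 1.81 in *bam* RNAi. In whole ovaries, then, *bgcn* mRNA was lower relative to *bam* and *tut* mRNA in *aramis* RNAi than in *bam* RNAi. *bam* is itself the RNAi target of the control, and the part of this in the ratios to *bam* was not tested. The ratio of *tut* to *bam*, at 9.15 and 7.39 against 10.9 and 10.1, differed much less. *ovo* over *Sxl* was 0.134 and 0.191 in *aramis* RNAi against 0.709 and 0.567 in *bam* RNAi. The ratio of *ovo* to *otu* overlapped between the groups, at 1.27 and 1.65 against 1.98 and 1.23, so these 2 genes fell by similar amounts. *stil* over *otu* was 2.45 and 1.24 in *aramis* RNAi against 0.771 and 0.997 in *bam* RNAi.

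Because the summed germline markers were lower in *aramis* RNAi, the 9 genes were also fitted with size factors taken from the 25 germline markers, none of which is among the 9. This scaling moved the median change over every gene tested to 1.25 log2 units, and 43.1% of them were then called higher and 0.908% lower. *ovo* (-1.30 log2 units, adjusted p = 0.0133 in DESeq2), *otu* (-1.18, adjusted p = 0.0201) and *bgcn* (-1.09, adjusted p = 0.0332) remained lower than in *bam* RNAi and were the 3 members called lower. *stil*, at -0.15 (adjusted p = 0.842 in DESeq2), no longer passed the test. *Rbfox1* was called higher, at 1.25 (adjusted p = 0.0176 in DESeq2), close to the median of all genes under this scaling. *bam* (1.24, adjusted p = 0.129 in DESeq2), *tut* (0.87, 0.119), *Sxl* (0.69, 0.163) and *mei-P26* (0.67, 0.193) turned positive without passing the test. As a share of the summed germline CPM, the log2 value of *ovo* was -5.64 and -5.02 in *aramis* RNAi against -3.36 and -4.17 in *bam* RNAi. That of *bgcn* was -6.24 and -6.36 against -5.14 and -4.76, and that of *otu* was -7.04 and -6.80 against -5.41 and -5.52. For *bam* the order was the opposite, with -9.24 and -8.87 in *aramis* RNAi against -9.96 and -10.05 in *bam* RNAi, and the groups did not overlap. The same held for *tut*, *Rbfox1* and *Sxl*, so *bam* was not alone in it. The fitted change of *bam*, 1.24, was also close to the median of all genes under this scaling. The share of all genes with this order was not counted, so the order is not read as particular to these members.

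**Figure D3:**
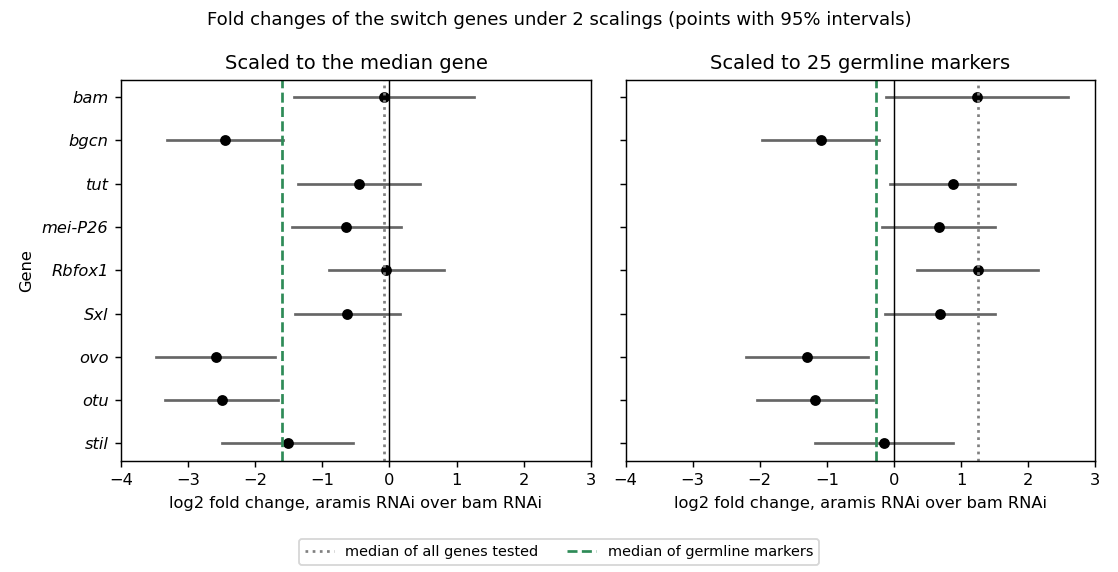
Log2 fold changes, *aramis* RNAi over *bam* RNAi, of the 9 genes with their 95% intervals, scaled to the median gene (left) and to the 25 germline markers (right). The dotted line is the median of all tested genes (-0.09 left, 1.25 right) and the dashed line that of the germline markers (-1.61 left, -0.27 right); *ovo*, *otu* and *bgcn* lie left of both lines in both panels.

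In *bam* RNAi the replicates of these genes differed in a way that followed transcript length. There the 4 genes with the longest transcripts, of 5964 to 23041 nt, were higher in replicate 1, with log2 ratios of replicate 1 to replicate 2 of 0.67 for *Rbfox1*, 0.49 for *ovo*, 0.33 for *mei-P26* and 0.17 for *Sxl*. The other 5, of 1046 to 4159 nt, were all lower in it, from -0.70 for *bgcn* to -0.12 for *tut*. Over 7686 genes of known length that averaged 50 or more normalised counts, the median ratio was -0.31 in the shortest and 0.47 in the longest of 5 equal bins of length. In *aramis* RNAi the trend over all genes ran the other way, at 0.33 and -0.40, and the 9 genes followed it only in part. The 4 genes with the longest transcripts were lower in replicate 1, from -0.78 for *ovo* to -0.27 for *Sxl*, and *stil* was higher, at 0.57. *bam* (-0.53), *otu* (-0.40), *tut* (-0.22) and *bgcn* (-0.04) were lower in it as well, though their transcripts are shorter. With the length trend of each library removed, the same 4 genes fell, at changes in log2 units of -2.62 for *ovo*, -2.47 for *otu*, -2.44 for *bgcn* and -1.58 for *stil* (DESeq2 adjusted p of at most 0.00471), and *mei-P26* stood at -0.97 (adjusted p = 0.0575).

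Of the 16 partners, targets, effectors and regulators of the Bam, Mei-P26 and Rbfox1 proteins found in the tables, 2 fell and none rose, beside 7.04% of all tested genes that fell, with a median of -0.27 log2 units. With the germline-marker scaling, 9 of the 16 were called higher and none lower, so both falls were lost. Under that scaling 43.1% of all tested genes were called higher and 0.908% lower. *nos* (*nanos*), a translational repressor that keeps stem cells and is itself repressed when Bam acts, had 594 normalised counts in both *aramis* RNAi libraries against 2188 and 2845 in *bam* RNAi. It changed by -2.08 log2 units (SE 0.41, adjusted p = 3.11e-05 in DESeq2), and the groups lay far apart. *CycA*, the cyclin that Bam and Otu stabilise, had 969 and 1122 against 2674 and 2767 (-1.38 log2 units, SE 0.40, adjusted p = 0.00771 in DESeq2). The partner of *nos*, *pum*, had 2858 and 4154 against 4792 and 3889 and a change of -0.31 log2 units (adjusted p = 0.661 in DESeq2). Of the CCR4-NOT deadenylase genes through which Bam acts on mRNAs, *twin* had -1.38 (adjusted p = 0.0643), *Pop2* -0.82 (0.170), *Rcd-1* -0.78 (0.201) and *Not1* -0.21 (0.791), and none passed the DESeq2 test.

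Of 17 genes that work with or under *Sxl*, 2 fell and none rose, beside the same 7.04%, with a median of -0.62. Both falls were lost with the germline-marker scaling, under which 5 were called higher and none lower, beside 43.1% and 0.908% of all tested genes. *egg*, a histone methyltransferase gene that silences the male gene *Phf7* in female germ cells, had 469 and 880 normalised counts in *aramis* RNAi against 2674 and 1479 in *bam* RNAi (-1.62 log2 units, SE 0.49, adjusted p = 0.0104 in DESeq2). *nito*, a component of the RNA methylation complex that supports *Sxl* splicing, had 662 and 1014 against 2220 and 1925 (-1.31 log2 units, SE 0.43, adjusted p = 0.0204 in DESeq2). *Phf7* itself overlapped between the groups, with 1323 and 1058 against 1297 and 2033 (-0.48 log2 units, adjusted p = 0.489 in DESeq2). Among 4 RNA-binding partners of *otu*, *sqd*, *Hrb27C* and *glo* had changes in log2 units of -0.07, -0.16 and -0.75, of which none passed the test, and *cup* was listed at 0 in all 4 libraries. Why *cup* had no counts was not examined, so this is not read as absence of its RNA.

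Set beside the germline markers, whose median was -1.61, the 9 genes spanned both sides. *ovo*, *otu* and *bgcn* lay near the 3 markers that fell with the smallest adjusted p, *rhi* (-2.77, adjusted p = 1.04e-06 in DESeq2), *tej* (-2.64, 5.18e-07) and *AGO3* (-2.27, 2.90e-06). These 3 markers stand toward the low end of a list whose changes ran from -2.77 to 1.36. Of the germline markers, *grk*, an oocyte signal of the EGF receptor pathway, was the one that rose, with 1329 and 1276 normalised counts in *aramis* RNAi against 485 and 532 in *bam* RNAi (1.36 log2 units, SE 0.42, adjusted p = 0.0114 in DESeq2). *Rbfox1* and *bam* lay near the median of all tested genes instead. Muscle markers, by contrast, had a median of 1.45, with *Mlc1* (2.08), *Mlc2* (2.08) and *Act57B* (1.84) past the test at the smallest adjusted p, and hemocyte markers of 2.92, with *PPO2* (5.19), *NimC1* (3.49) and *Hml* (2.76) at the smallest. The 12 ovarian somatic markers had a median of 0.36.

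**Figure D4:**
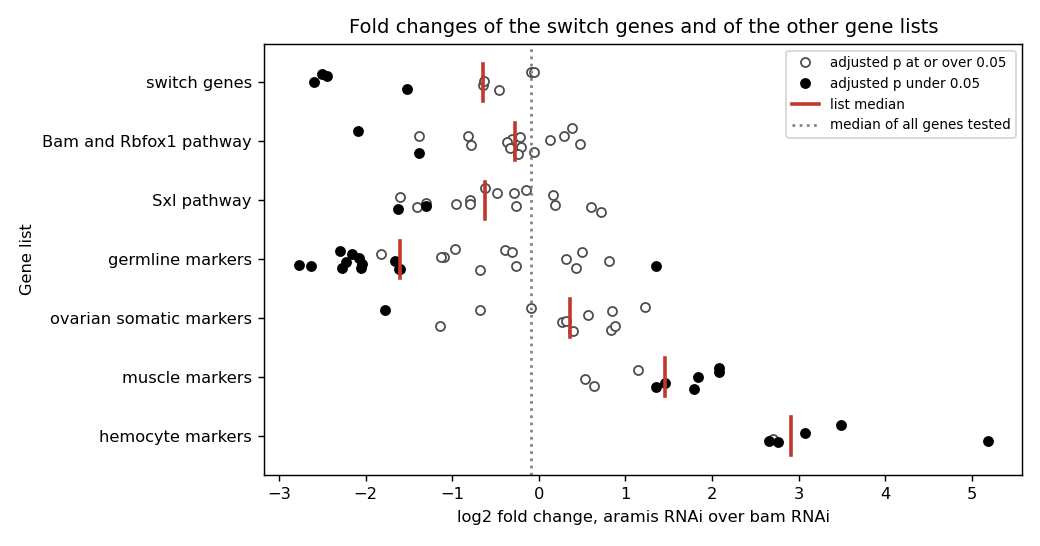
Log2 fold changes, *aramis* RNAi over *bam* RNAi, of the genes of 7 lists; filled points passed the DESeq2 test at an adjusted p under 0.05, open points did not, red bars are list medians and the dotted line is the median of all tested genes (-0.09). Every switch gene lies within the range of the germline markers (-2.77 to 1.36). The 4 switch genes that fell lie further from the median of all tested genes than the other 5.

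The pattern over the 4 libraries was compared with that of 7871 genes with a mean of at least 50 normalised counts, by the root-mean-square distance of centred log2 normalised counts. Nearest to *bam* were *tank* (0.024), *PNUTS* (0.045) and *ca* (0.051), none of which passed the test, with changes in log2 units of -0.09, -0.14 and -0.08, and 301 genes lay within 0.2. The few reads of *bam* leave counting errors wider than these distances, so the order of its neighbours carries no weight. Nearest to *otu* were *nenya* (0.058), *CG5342* (0.083) and *CG30383* (0.106), with changes in log2 units of -2.53, -2.37 and -2.36, and only 19 genes lay within 0.2. These 3 genes had few reads, with means of 20.5, 19.4 and 46.7 normalised counts in *aramis* RNAi against 118, 100.3 and 240.0 in the control. The distances rest on 4 libraries of 2 groups and describe these libraries only.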

How the data were processed

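The authors deposited, for each library, 1 table of unscaled read counts by gene. The submitters' processing notes name HISAT2 (2.1.0), featureCounts (1.4.6) and DESeq2 (1.24.0) and the dm6 build; the annotation release and strand setting were not given in the sources used here. The kit was directional and poly(A)-selecting, with RNA fragmentation of 13 minutes. Ensembl release 115 (dm6 coordinates) supplied gene symbols, transcript lengths and positions and matched 16647 of 17023 identifiers. *Med*, *vas*, *wupA* and *PPO1* were not matched and not analysed.

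The DESeq2 (1.42.0) Wald test, with median-of-ratios scaling and a single group term, was run on every gene whose counts over the 4 libraries came to 10 or more, and p-values were adjusted by Benjamini-Hochberg over the 10049 of 11128 genes that passed its independent filtering. Changes in log2 units are those of *aramis* RNAi over *bam* RNAi. Division of counts by the size factors gave the normalised counts. Intervals are 95% Wald intervals. Counts were not corrected for PCR duplicates, so Poisson intervals and floors cover counting error only. Alternatives were edgeR (4.0.16) quasi-likelihood, other scalings and filters, removal of length trends, a replicate block and leaving out each library. On simulated data, both tools gave the true direction to the changed genes they called, and false calls were a larger share of calls than the threshold aims at.

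Named genes are the 9 members, *ais*, up to 3 called members of each other list with the smallest adjusted p, and the 3 genes nearest to *bam* and to *otu*. Further list members, overlapping genes and *grk* were named after their values were seen. The members and the 8 lists were chosen with earlier results of these data known.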

Additional observations from a re-analysis of the deposited data

How the results depend on the processing

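*ovo*, *otu* and *bgcn* were called lower under every alternative, and the count of switch genes called lower was 4 or 3. *stil* kept its direction but lost its call under germline-marker scaling, in both fits with replicate numbers as blocks, in the blocked fit with the length trend removed, and without any of the libraries but *bam* RNAi replicate 1. Scaling to germline markers called 1 switch gene higher and reversed *bam* (1.24), *tut* (0.87), *mei-P26* (0.67), *Rbfox1* (1.25) and *Sxl* (0.69) in log2 units. It also reversed the medians of the switch genes (0.67), the Bam pathway (1.04), the Sxl pathway (0.66), the *otu* partners (1.15) and all genes tested (1.25). It called 4795 genes higher and 101 lower, against 990 and 783 with the median-of-ratios scaling. Other counts of genes called, higher and then lower, were 639 and 528 in edgeR, 542 and 1619 with total-count scaling, and 333 and 362 with the 4-fold limit. With total counts the share called higher was 25.1%, against 55.8%, and the median change -0.45.

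Same-numbered libraries deviated from their group means with a correlation of -0.39 across tested genes, and the numbers were not taken as pairs. The call of *ais* was lost in edgeR with this block (adjusted p = 0.0868). The falls of *egg* and *nito* were lost with it in DESeq2, as was 1 of the 2 in the Bam pathway. Blocking on that number, 438 and 277 genes were called in DESeq2, 191 and 191 in edgeR, and 608 and 384 with the length trend removed. With the pairing crossed, chosen after the data were seen, 1596 and 1372 were called. The cause of these differences was not tested.

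Without 1 library each, 85 to 1400 genes were called higher and 103 to 1180 lower, with 85 and 103 without *aramis* RNAi replicate 1, 233 and 197 without its replicate 2, 1116 and 492 without *bam* RNAi replicate 1, and 1400 and 1180 without its replicate 2. In each, the lone library is assumed to vary like the others. The change of *bam* then ran from -0.36 to 0.18, that of *Rbfox1* from -0.36 to 0.33, and the medians of *otu* partners from -0.59 to 0.060, of ovarian somatic markers from -0.15 to 0.72 and of all genes from -0.11 to 0.011. With mean transcript lengths, *mei-P26* averaged 41.9 TPM and *Sxl* 241 TPM, against 23.4 and 135.4 TPM. The wide interval of *bam* limits what can be said of it.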

Other observations

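Of 11 spermatocyte markers, 8 had enough counts for the fit and 6 of these received an adjusted p. Among them 1 fell and none rose, beside 7.04% of all tested genes that fell and 8.9% that rose. The 1 that fell was *topi*, with 63.7 and 29.9 normalised counts in *aramis* RNAi against 182 and 197 in *bam* RNAi (-2.02 log2 units, SE 0.61, adjusted p = 0.0107 in DESeq2). The list summed to 37.4 and 32.1 CPM in *aramis* RNAi against 72.9 and 69.7 CPM in *bam* RNAi. *bol*, the member with the most reads, had 428 and 372 normalised counts against 530 and 236, *nht* and *fzo* received no adjusted p, and *sa*, *comr* and *dj* had too few counts to be fitted.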
